A study of Mus musculus with 15 samples.

Results

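In wild type mouse bone marrow, 121 of 29251 autosomal windows of 1 kb (0.414%) carried a clearly different level of DNA methylation in 2 kinds of committed progenitor, and those 121 windows are described here across 3 mutant genotypes. The cells were megakaryocyte-erythroid progenitors (MEP), which give rise to red cells and platelets, and granulocyte-macrophage progenitors (GMP), which give rise to neutrophils and monocytes. A window was kept where both wild type MEP libraries lay at least 15 percentage points above both wild type GMP libraries (79 windows, called MEP-high here) or at least 15 points below both (42 windows, called MEP-low). A window needed at least 3 CpGs covered by at least 10 reads in all 15 libraries, and its level is methylated reads over all reads. The windows were chosen by the wild type levels themselves, so the wild type difference, and every mutant level set against wild type, is given as a description with no test.

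The assay was reduced representation bisulfite sequencing, which reads CpG-rich restriction fragments after bisulfite has converted unmethylated cytosines. The 15 libraries came from freshly sorted C57BL/6 bone marrow cells in 7 groups. The double mutant, KO3a_M140 (Mx1-cre+;Dnmt3a-/-;Idh2 R140Q), was represented by 3 libraries of malignant stem and progenitor cells sorted with the MEP surface markers (Lin-, cKit+, Sca1-, CD34-, Cd16/32-). The Dnmt3a knockout, KO3a_GFP (Mx1-cre+;Dnmt3a-/-), the Idh2 mutant, WT3a_M140 (Mx1-cre-;Dnmt3af/f;Idh2 R140Q), and the wild type, WT3a_GFP (Mx1-cre+;Dnmt3af/f), each had 2 MEP and 2 GMP libraries, the GMP sorted as CD34+, Cd16/32+. All genotypes thus carried a floxed or deleted Dnmt3a gene, the Idh2 mutant was the only one without the Mx1-cre transgene, and no double mutant GMP library was analysed here. Mx1-cre is driven by an interferon-responsive promoter and acts in many blood cells and other tissues, so deletion is not limited to progenitors.

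Dnmt3a is a de novo DNA methyltransferase that adds methyl groups to unmethylated CpGs and is often mutated in human myeloid leukaemia. Idh2 is a mitochondrial isocitrate dehydrogenase, and the R140Q form makes 2-hydroxyglutarate, which inhibits the TET enzymes that oxidise methylcytosine on the way to its loss. Differences in methylation between blood lineages lie mostly at enhancers and other elements away from CpG-island promoters, where the factors that define a lineage bind.

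Most of these windows are short stretches of 3 or 4 measured CpGs inside an intron or between genes. The 6 printed here are those that the results below turn on. They are given on the plus strand of the NCBIM37 (mm9) reference from 12 bases before the first measured CpG to 12 bases after the last, with each measured CpG in capitals. The first 3 were MEP-high, and lie in an intron of Cdk6 (chr5:3382369-3382528), between genes with Sgms2 as the nearest start (chr3:131129282-131129417), and 31378 bp from the start of Myb (chr10:20912156-20912326).
Cdk6: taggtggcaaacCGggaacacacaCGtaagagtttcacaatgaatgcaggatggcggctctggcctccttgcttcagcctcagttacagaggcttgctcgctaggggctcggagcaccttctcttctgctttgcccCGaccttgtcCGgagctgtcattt
Sgms2: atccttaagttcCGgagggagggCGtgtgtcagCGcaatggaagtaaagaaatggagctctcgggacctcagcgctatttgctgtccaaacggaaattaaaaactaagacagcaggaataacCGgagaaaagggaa
Myb: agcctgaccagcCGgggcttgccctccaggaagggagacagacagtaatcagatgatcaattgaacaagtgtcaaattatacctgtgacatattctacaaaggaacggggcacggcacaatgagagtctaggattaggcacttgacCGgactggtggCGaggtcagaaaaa
The other 3 were MEP-low, and lie in an intron of Clybl (chr14:122583401-122583453), between genes with Tpra1 as the nearest start (chr6:88940004-88940152), and 23262 bp from the start of Smad6 (chr9:63893116-63893259).
Clybl: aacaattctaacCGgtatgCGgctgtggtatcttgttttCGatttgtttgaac
Tpra1: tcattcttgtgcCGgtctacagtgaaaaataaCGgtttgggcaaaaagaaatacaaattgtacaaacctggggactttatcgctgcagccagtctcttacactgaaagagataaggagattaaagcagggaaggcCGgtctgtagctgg
Smad6: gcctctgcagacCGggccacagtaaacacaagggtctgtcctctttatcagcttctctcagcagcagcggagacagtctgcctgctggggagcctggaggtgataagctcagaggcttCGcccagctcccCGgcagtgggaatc

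In the Idh2 mutant every measured CpG of these 6 stretches had the wild type order of its window. The windows at Cdk6, Sgms2, Clybl, Tpra1 and Smad6 were called in the Idh2 mutant, so the order there was largely set by what was printed. Not every named window had that order throughout. It was seen at 3 of 4 CpGs in Rnf157 and Zbtb16, and at 2 of 3 in Sctr and Gadd45g. In the Cdk6 stretch, its 4 CpGs averaged 72.4%, 77.9%, 78.8% and 87.5% in Idh2 mutant MEP, against 28.7%, 30.9%, 18% and 9.38% in Idh2 mutant GMP. In the Clybl stretch, its 3 CpGs averaged 19.6%, 22.7% and 24.4% in Idh2 mutant MEP, against 88.2%, 85.5% and 90.8% in Idh2 mutant GMP. In the Tpra1 stretch the first 2 CpGs averaged 31.6% and 15.6% in Idh2 mutant MEP and the last one 2.0%, against 84.8%, 68.4% and 62.3% in Idh2 mutant GMP. In the Dnmt3a knockout the wild type order was seen at 4 of 4 CpGs in Cdk6, 4 of 4 in Sgms2, 3 of 3 in Clybl, 2 of 3 in Tpra1, 2 of 3 in Smad6 and 1 of 3 in Myb. The CpGs of the Tpra1 stretch averaged 64.4%, 71.5% and 7.69% in knockout MEP, against 68.5%, 51.5% and 7.99% in knockout GMP, so that only the middle one was higher in MEP.

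The libraries held 19306705 to 35204906 cytosine reads each. The 121 windows had a median of 156 reads per window and library (30 to 583), where all windows had 203, and at that depth the binomial standard error of a level of 50% is 4.0 points, covering counting error only. The wild type libraries stood apart from all mutant libraries in the reads of the sex chromosomes, with X reads at 2.21% to 2.25% of autosomal reads, against 1.17% to 1.47% in the mutant libraries, and the ratio of Y reads to autosomal reads was below that of every mutant library. Any difference between mutant and wild type goes together with that split, and the 2 cannot be told apart. The labels call the samples biological replicates and do not say that each came from its own animal, so p-values here measure the spread between these libraries.

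Averaged over the 79 MEP-high windows, methylation was 67.7% ± 2.36 in the double mutant (SD over libraries, n = 3), 66.3% ± 4.51 in Dnmt3a knockout MEP and 51.5% ± 3.42 in knockout GMP (n = 2 each). It was 80.5% ± 0.404 in Idh2 mutant MEP and 53.3% ± 0.0565 in Idh2 mutant GMP, against 57.6% ± 2.41 in wild type MEP and 28.7% ± 0.459 in wild type GMP (n = 2 each). The 3 mutant groups with MEP markers thus lay above wild type MEP on average, and both mutant GMP groups lay between the wild type groups. Over the 42 MEP-low windows the averages were 67.6% ± 1.30 in the double mutant (n = 3), 62.4% ± 6.95 in knockout MEP and 66.0% ± 1.15 in knockout GMP (n = 2 each). They were 50.3% ± 7.78 in Idh2 mutant MEP and 80.8% ± 3.62 in Idh2 mutant GMP, against 57.4% ± 5.22 in wild type MEP and 83.2% ± 0.329 in wild type GMP (n = 2 each). The wild type separation was thus present in the Idh2 mutant in both kinds of window, was narrower in the knockout MEP-high windows, and was within the spread of the libraries in the knockout MEP-low windows.

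**Figure D1:**
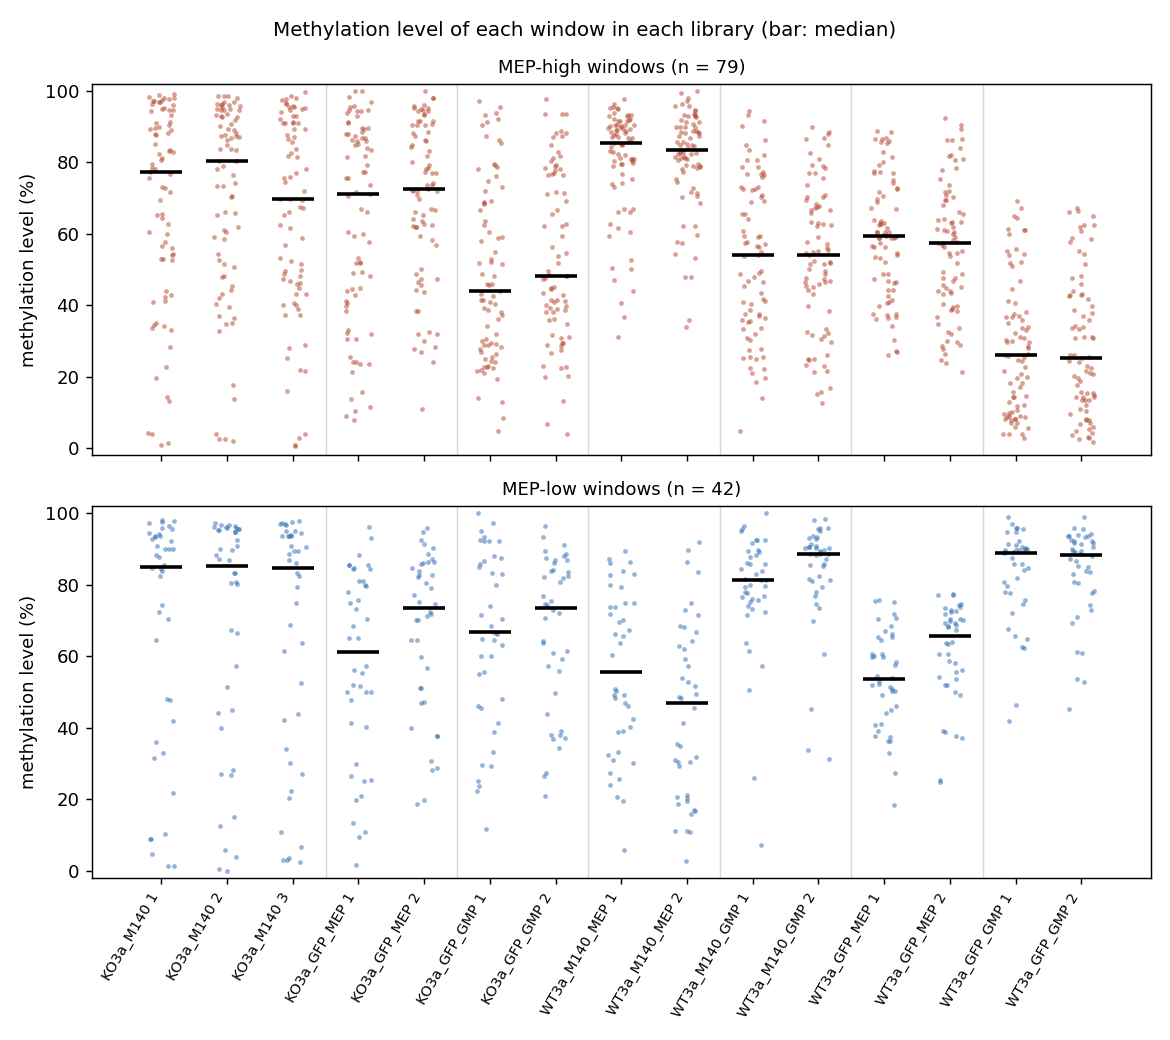
Methylation level (%) of each window (points) in each of the 15 libraries, with the median as a bar, for the 79 MEP-high windows (upper panel) and the 42 MEP-low windows (lower panel). Median levels at MEP-high windows were 85.4% and 83.5% in the Idh2 mutant MEP libraries, against 54.0% and 54.0% in the Idh2 mutant GMP libraries, and the 3 double mutant libraries had medians of 84.8% to 85.2% at MEP-low windows.

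The Idh2 mutant kept the wild type order at nearly all of the windows. The difference MEP minus GMP was positive at 78 of 79 MEP-high windows, with a median of 25.3 points, where 31.8% of all windows had a positive one, and positive at 0 of 42 MEP-low windows, with a median of -26.6 points. Over all 29251 windows the median was -0.65 points. The medians depend on how many wild type libraries made the choice: windows chosen from 1 MEP and 1 GMP library, without wild type replicate 1 of both (378 MEP-high, 300 MEP-low), had Idh2 mutant medians of 2.75 and -5.10 points, and those chosen without replicate 2 (226 and 457) had 13.3 and -6.14 points. Both Idh2 mutant MEP libraries lay above both GMP libraries at 69 of the 79 MEP-high windows, where 6.56% of all windows did, and below both at 36 of the 42 MEP-low windows, where 22.4% of all windows did. No member had the opposite order without overlap. The 15-point rule itself, applied to the Idh2 mutant, was met at 43 of the 79 and at 22 of the 42, where 0.311% of all windows met it with MEP above and 0.27% with MEP below. These shared windows were 47.3% of the 91 windows that the rule gave as MEP-high in the Idh2 mutant and 27.8% of the 79 it gave as MEP-low. A window under 10% in both cell types cannot meet the rule or reach the 10 points of a call used below. Over all windows 47.4% were under 10% in Idh2 mutant MEP and 46.8% in GMP, against 0 and 1 MEP-high and 0 MEP-low members. Shares by the rule and by call are thus not like for like.

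A difference was called here at a Benjamini-Hochberg adjusted p under 0.05 over all windows in a quasi-binomial model of the 11 mutant libraries, together with a difference of at least 10 points. In the Idh2 mutant 14 of the 79 MEP-high windows were called higher in MEP, where 0.0752% of all windows were, and 10 of the 42 MEP-low windows were called lower in MEP, where 0.0615% of all windows were. At an unadjusted p under 0.05 there were 59 of 79 and 33 of 42 members, where 9.37% of all windows were. Across all windows only 40 passed, 22 higher and 18 lower. These calls were fragile: limma, edgeR and a block on the title number made 0 calls over all windows. Most or all calls were also lost when 1 Idh2 mutant library was left out. At an unadjusted p under 0.05 there were 1957 windows in limma and 1402 in edgeR. A share of 0.05 of all windows is expected at that p with no difference, so these counts alone show no lineage difference. With CpGs of at least 20 reads there were 20 calls. The order of the libraries at the members does not rest on these calls.

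Sgms2, a sphingomyelin synthase, is the gene nearest to one of the widest called differences. Its window was at 84.4% and 78.6% in the Idh2 mutant MEP libraries, against 21.1% and 21.5% in the GMP libraries, a difference of 60.2 points (adjusted p = 0.000706, quasi-binomial model). The Cdk6 window, in an intron of a cyclin-dependent kinase that drives cells into the cycle, was at 79.5% and 82.6% in Idh2 mutant MEP, against 25.2% and 15.2% in Idh2 mutant GMP (60.9 points, adjusted p = 0.014). The groups did not overlap at either window. Rbms1, which codes for a protein that binds single-stranded DNA and RNA, held the widest called difference among MEP-high windows, 83.1% and 93.0% in Idh2 mutant MEP against 14.1% and 29.7% in GMP (66.2 points, adjusted p = 0.00218).

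Among MEP-low windows the Clybl intron, in a mitochondrial citrate lyase-like gene, was at 33.3% and 11.1% in the Idh2 mutant MEP libraries, against 87.7% and 88.7% in the GMP libraries, a difference of -65.9 points (adjusted p = 0.00218). Kcnn4, the calcium-activated potassium channel of red cells, held a coding-exon window at 30.2% and 20.5% in Idh2 mutant MEP, against 84.0% and 93.3% in Idh2 mutant GMP (-63.3 points, adjusted p = 0.00397). Both had MEP libraries far below the GMP libraries, and at Clybl the 2 MEP libraries also lay apart. Stat5a, a signal transducer downstream of the erythropoietin receptor, had a window within 1 kb of a start site at 46.1% and 31.7% in Idh2 mutant MEP, against 76.9% and 89.8% in Idh2 mutant GMP (-44.5 points, adjusted p = 0.029). The promoter window of Lrpprc, a mitochondrial RNA-binding protein, was at 31.0% and 10.8% in Idh2 mutant MEP, against 79.7% and 82.3% in Idh2 mutant GMP (-60.1 points, adjusted p = 0.0336). At each of these 4 genes the adjusted p was above 0.05 in limma and in edgeR.

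In the Dnmt3a knockout the separation was partly kept at MEP-high windows and mostly not at MEP-low windows. The difference MEP minus GMP had a median of 12.7 points at MEP-high windows and was positive at 67 of 79, where 54.1% of all windows had a positive one, and it had a median of -4.04 points at MEP-low windows and was negative at 28 of 42. With members chosen without wild type replicate 1 these medians were 1.97 and -0.34 points, and without replicate 2 they were 5.20 and 0.47 points. Both knockout MEP libraries lay above both GMP libraries at 46 of 79 MEP-high windows, where 18.3% of all windows did, and below both at 11 of 42 MEP-low windows, where 8.45% of all windows did. The opposite order without overlap was seen at 2 MEP-high and 4 MEP-low windows. The 15-point rule was met in the knockout at 20 of 79 and at 0 of 42, where 0.232% of all windows met it with MEP above and 0.0205% with MEP below. Applied to all windows it gave 68 MEP-high and 6 MEP-low windows in the knockout, and the 20 shared windows were 29.4% of the 68. Over all windows 50.1% were under 10% in knockout MEP and 50.0% in knockout GMP, and a window that low in both cannot meet the rule or be called. The shares of all windows are thus not like for like here either.

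The 2 knockout MEP libraries differed from each other at MEP-low windows, with mean levels of 57.5% and 67.3%, against 65.1% and 66.8% in the knockout GMP libraries. Taken by the number in the sample title, the median difference at MEP-low windows was -9.09 and -0.31 points, and the group median was -1.57 points without knockout MEP replicate 1 and -7.46 points without replicate 2. At MEP-high windows the 2 numbers gave 9.77 and 14.9 points, and the group median was 8.07 points without knockout MEP replicate 2. Only 2 members were called in the knockout, both higher in MEP, where 0.0137% of all windows were called higher and 0.0% lower. At an unadjusted p under 0.05 there were 33 of 79 and 3 of 42 members, where 6.01% of all windows were. One was a coding-exon window of Kdelc2, an endoplasmic reticulum protein, at 93.9% and 83.2% in knockout MEP against 21.9% and 30.7% in knockout GMP (62.2 points, adjusted p = 0.0274, quasi-binomial model). The other lay 11225 bp from the start of Cdca4, a cell-cycle regulator, at 94.7% and 90.7% in knockout MEP against 52.8% and 59.3% in knockout GMP (36.6 points, adjusted p = 0.0274). Both calls were lost in limma, in edgeR, with 20 reads per CpG, with 500 bp windows and without any 1 of the 4 knockout libraries, where 0 windows were called in all.

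**Figure D2:**
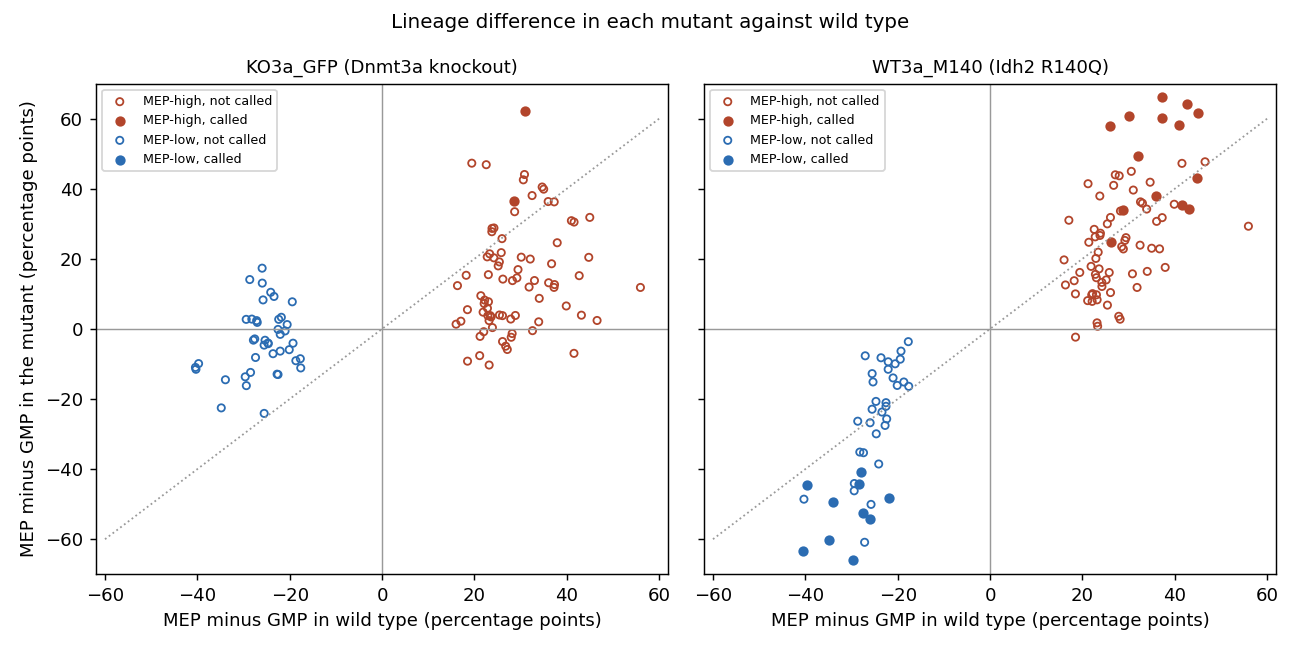
Difference MEP minus GMP (percentage points) of each of the 121 windows in the Dnmt3a knockout (left) and the Idh2 mutant (right) against the same difference in wild type, with called windows filled and the line of equality dotted. MEP-low windows in the knockout scatter around 0 (median -4.04 points), whereas those of the Idh2 mutant all lie below 0 (median -26.6 points).

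The knockout and the Idh2 mutant were set against each other by the difference of their lineage differences. Its median was -10.5 points at MEP-high windows, where it was positive at 19 of 79. At MEP-low windows the median was 27.6 points, and it was positive at 40 of 42. Over all windows it was positive at 65.8%, with a median of 0.945 points. The MEP-high median was -6.03 points without knockout GMP replicate 2, and with members chosen without wild type replicate 1 or replicate 2 the medians were -1.63 and 5.82 or -4.56 and 7.09 points. The quasi-binomial model called 0 of the 121 members, and 0.0% of all windows. At an unadjusted p under 0.05 there were 24 of 79 MEP-high and 24 of 42 MEP-low windows, where 7.83% of all windows were (2289). Calls by limma and edgeR were 0 as well, with 1844 and 1471 windows at that p. A share of 0.05 of all windows is expected there with no difference. A difference between the 2 genotypes was therefore not shown for any single window. Any such difference would also go together with Mx1-cre, which only the Idh2 mutant lacked, and the 2 cannot be told apart. Both mutants kept the wild type order without overlap at 42 of 79 MEP-high windows, where 1.51% of all windows had MEP above GMP in both, and at 9 of 42 MEP-low windows, where 1.85% had MEP below GMP in both. Only the Idh2 mutant kept it at 27 MEP-high and 27 MEP-low windows, only the knockout at 4 and 2, and neither at 6 and 4. The shares of all windows for these splits were not counted. With each mutant taken alone, Idh2 mutant MEP lay above GMP without overlap at 6.56% of all windows and below at 22.4%. Knockout MEP lay above at 18.3% and below at 8.45%. The 27 and 27 thus stand beside unlike shares.

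The mutant levels were also placed against the 2 wild type levels of each window. Knockout GMP lay nearer to wild type MEP than to wild type GMP at 56 of 79 MEP-high windows, and Idh2 mutant GMP did so at 66 of 79. At MEP-low windows knockout GMP lay nearer to wild type MEP at 24 of 42, whereas Idh2 mutant GMP lay nearer to wild type GMP at 39 of 42. Idh2 mutant MEP lay above both wild type groups at 77 of 79 MEP-high windows and below both at 28 of 42 MEP-low windows. The rule chose the windows by these wild type levels, so these counts are a description.

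Of the lists of lineage genes, 3 genes held a member. Myb is a transcription factor of early progenitors, and its distal window was at 54.3%, 70.1% and 58.7% in the double mutant, 48.1% and 78.1% in knockout MEP and 58.8% and 62.6% in knockout GMP. It was at 88.9% and 91.3% in Idh2 mutant MEP and 37.4% and 47.4% in Idh2 mutant GMP, against 56.6% and 53.7% in wild type MEP and 10.1% and 7.05% in wild type GMP. The knockout libraries of both cell types overlapped there, while the Idh2 mutant libraries did not. The MEP minus GMP difference was 2.4 points in the knockout (adjusted p = 0.926) and 47.7 points in the Idh2 mutant (adjusted p = 0.0824), neither of them called.

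Flt3, the cytokine receptor of multipotent and lymphoid-primed progenitors, held an intron window at 33.5%, 32.8% and 43.0% in the double mutant and at 30.6% and 29.9% in knockout MEP, with 24.0% and 28.9% in knockout GMP. It was at 61.7% and 48.0% in Idh2 mutant MEP and 24.8% and 21.3% in Idh2 mutant GMP, against 30.3% and 28.5% in wild type MEP and 3.85% and 2.82% in wild type GMP. All mutant groups were thus well above wild type GMP. Rhd, which codes for an Rh blood group antigen of red cells, had its promoter window, 43 bp from the start site, at 83.9%, 91.0% and 89.6% in the double mutant and 38.7% and 30.4% in Idh2 mutant MEP, against 85.7% and 88.7% in Idh2 mutant GMP. Wild type MEP was at 54.55% and 73.4%, against 90.6% and 92.45% in wild type GMP. The Idh2 mutant MEP libraries were the lowest, with a lineage difference of -52.7 points (adjusted p = 0.029, quasi-binomial model). The double mutant lay 53.6 points above Idh2 mutant MEP (adjusted p = 6.46e-05, quasi-binomial model). In the knockout the Rhd window was at 75.0% and 77.1% in MEP and 85.7% and 72.1% in GMP, and its groups overlapped.

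Few of the windows lay at genes of the lineage lists. The erythroid and megakaryocyte list had 25 of 44 genes with a window, and 1 of its 75 windows was a member (1.33%, where 0.414% of all windows were), the one at Rhd. The stem and early progenitor list had 23 of 26 genes with a window and 2 members among 108 windows (1.85%), those at Myb and Flt3. The granulocyte and macrophage list (15 of 37 genes, 64 windows) and the lymphoid list (12 of 24 genes, 48 windows) had 0 members, and genes without a covered window were not measured. In the Idh2 mutant, 2 windows of the erythroid and megakaryocyte list were called lower in MEP, where 0.0615% of all windows were, and 0 windows of the other 3 lists were called either way. In the knockout, 0 windows of the 4 lists were called by the quasi-binomial model, which called 4 windows in all. In double mutant against Idh2 mutant MEP, the erythroid and megakaryocyte list had 6 windows called higher and 8 lower, the granulocyte and macrophage list 15 and 4, the lymphoid list 8 and 0, and the stem and early progenitor list 8 and 12, where 10.8% of all windows were called higher and 3.5% lower. In the same order of lists the windows called higher and lower were 5 and 5, 16 and 0, 11 and 1, and 13 and 3 against knockout MEP, where 11.8% and 1.74% of all windows were. They were 7 and 5, 17 and 0, 12 and 0, and 17 and 3 against knockout GMP (11.5% and 1.22% of all windows), and 5 and 11, 12 and 1, 10 and 1, and 7 and 13 against Idh2 mutant GMP (8.44% and 3.75% of all windows). The cell types themselves rest on the sorted surface markers, since no transcript was measured.

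**Figure D3:**
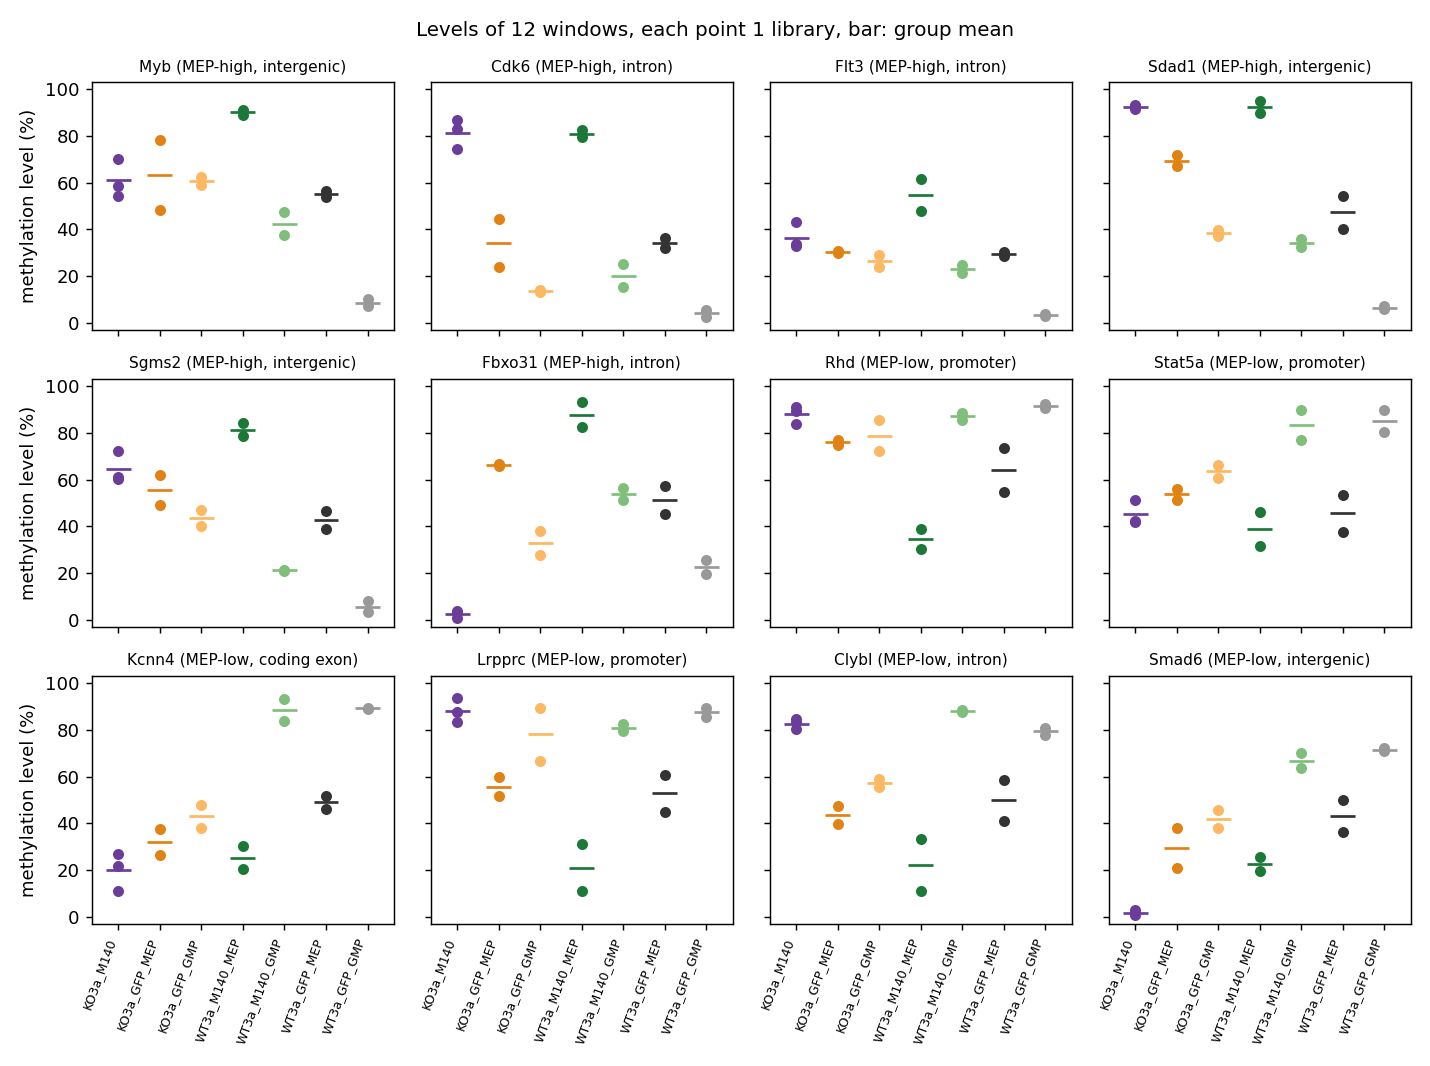
Methylation level (%) of 12 windows in every library, with the group mean as a bar, for the groups double mutant, knockout MEP and GMP, Idh2 mutant MEP and GMP, and wild type MEP and GMP. At Sgms2 and Clybl the Idh2 mutant MEP and GMP libraries lie on opposite sides, and at Fbxo31 and Smad6 the 3 double mutant libraries lie under 4%.

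The double mutant cells carried MEP surface markers, and their methylation did not follow one of the 2 progenitor types. Against Idh2 mutant MEP, the double mutant was called higher at 2 and lower at 26 of 79 MEP-high windows, and higher at 20 and lower at 4 of 42 MEP-low windows, where 10.8% of all windows were called higher and 3.5% lower. Against Idh2 mutant GMP it was called higher at 35 and lower at 8 MEP-high windows, and higher at 1 and lower at 13 MEP-low windows, where 8.44% of all windows were called higher and 3.75% lower. At MEP-high windows the double mutant thus had a median 5.78 points below Idh2 mutant MEP and 16.2 points above Idh2 mutant GMP. At MEP-low windows its median difference was 18.1 points against Idh2 mutant MEP and -2.39 points against Idh2 mutant GMP. These comparisons share the 3 double mutant libraries. A window under 10% in the Idh2 mutant cannot be called lower. Over all windows 47.4% were under 10% in Idh2 mutant MEP and 46.8% in Idh2 mutant GMP, and few members were, so the shares called lower are not like for like. The Idh2 mutant was also the only genotype without Mx1-cre, which goes together with these comparisons and cannot be told apart from them. With members chosen without wild type replicate 1 or replicate 2, the MEP-low median against Idh2 mutant MEP was 6.65 or 4.90 points (34.3% or 29.5% called) and the MEP-high median against Idh2 mutant GMP 2.98 or 6.06 points (32.3% called without replicate 1). The MEP-high median against Idh2 mutant MEP was then -3.17 points without replicate 1, and the MEP-low median against Idh2 mutant GMP -0.51 or -0.36 points. The 28 MEP-high calls against Idh2 mutant MEP became 18 without MEP replicate 1 and 14 without replicate 2. The 43 MEP-high calls against Idh2 mutant GMP became 21 without GMP replicate 1 and 27 without replicate 2, and the 14 MEP-low calls became 9 without replicate 1. Without double mutant replicate 3 the MEP-high median against Idh2 mutant MEP was -2.85 points and the MEP-low median against Idh2 mutant GMP -1.01 points, which was -1.55 points without Idh2 mutant GMP replicate 2.

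Against the knockout, which lacks Dnmt3a as the double mutant does, the double mutant was called higher than knockout MEP at 12 and lower at 9 MEP-high windows, and higher at 10 and lower at 5 MEP-low windows, where 11.8% of all windows were called higher and 1.74% lower. Against knockout GMP it was called higher at 34 and lower at 5 MEP-high windows, and higher at 6 and lower at 5 MEP-low windows, where 11.5% of all windows were called higher and 1.22% lower. The median differences were 1.94 and 6.56 points against knockout MEP at MEP-high and MEP-low windows, and 16.1 and 5.09 points against knockout GMP. The shares called lower were above those over all windows in both comparisons. A window under 10% cannot fall by the 10 points of a call. Over all windows 50.1% were under 10% in knockout MEP and 50.0% in knockout GMP. Among members these were 0 and 2 MEP-high windows and 0 MEP-low windows. The shares called lower are thus not like for like. With members chosen without wild type replicate 1, the MEP-high medians were 3.48 points against knockout MEP and 6.19 points against knockout GMP (29.9% called), and without replicate 2 the MEP-low median against knockout MEP was 3.30 points and the MEP-high median against knockout GMP 10.1 points. The 21 MEP-high and 15 MEP-low calls against knockout MEP became 13 and 8 without knockout MEP replicate 1, where the medians were -0.54 and 2.82 points, and without double mutant replicate 2 there were 9 MEP-low calls and a MEP-high median of 0.91 points. The 39 and 11 calls against knockout GMP became 20 and 3 without knockout GMP replicate 1, and without replicate 2 there were 7 MEP-low calls with a median of 2.20 points.

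At the windows where the Idh2 mutant groups did not overlap, the double mutant mean was nearer to Idh2 mutant MEP at 42 of 69 MEP-high windows and nearer to Idh2 mutant GMP at 23 of 36 MEP-low windows. Set against wild type, it was nearer to the MEP level at 67 of 79 MEP-high windows, and nearer to the GMP level at 25 of 42 MEP-low windows. In both of these placements the more frequent state was the more methylated one, in both kinds of window. Set against the knockout, the double mutant was nearer to MEP at 50 of 79 MEP-high windows. At MEP-low windows it was nearer to knockout MEP at 20 and to knockout GMP at 22 of 42, a nearly even split. Where the knockout groups did not overlap, it was nearer to MEP at 40 of 48 MEP-high and 7 of 15 MEP-low windows. Its mean lay above both knockout groups at 44 MEP-high and 25 MEP-low windows, between them at 20 and 4, and below both at 15 and 13. For the Idh2 mutant groups these counts were 28 and 18 above, 36 and 13 between, and 15 and 11 below. A nearer group is thus often not a level that was kept, and shares over all windows were not counted. The Cdk6 window was at 82.9%, 86.9% and 74.6% in the double mutant, against 23.6% and 44.4% in knockout MEP and 79.5% and 82.6% in Idh2 mutant MEP. It lay 47.5 points above knockout MEP (adjusted p = 0.000321, quasi-binomial model) and 0.41 points above Idh2 mutant MEP (adjusted p = 1.0). The Clybl window was at 84.6%, 80.3% and 83.3% in the double mutant, which was 39.0 points above knockout MEP (adjusted p = 0.00122) and 60.5 points above Idh2 mutant MEP (adjusted p = 3.56e-05). Cdk6 thus had the level of Idh2 mutant MEP, and Clybl had a level near that of Idh2 mutant GMP, at 87.7% and 88.7%.

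**Figure D4:**
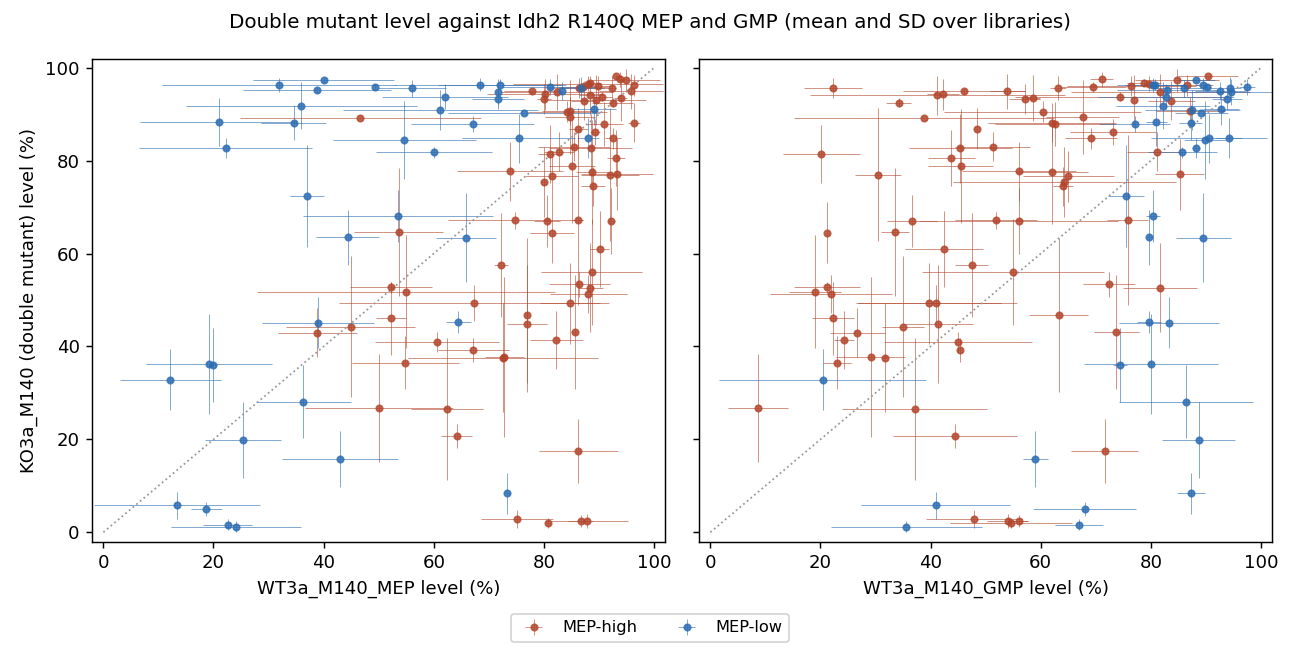
Mean methylation level (%) of each window in the 3 double mutant libraries against Idh2 mutant MEP (left) and Idh2 mutant GMP (right), with the SD over libraries as error bars and equality dotted. Many windows lie at the top, and 9 lie under 10% in the double mutant, below the means of both Idh2 mutant groups.

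The double mutant mean was over 90% at 23 of 79 MEP-high (29.1%) and 17 of 42 MEP-low windows (40.5%), where 27.8% of all windows were, and under 10% at 4 (5.06%) and 5 (11.9%), where 41.2% of all windows were. The MEP-high share over 90% was thus near that of all windows. In knockout MEP the mean was over 90% at 16 MEP-high and 3 MEP-low windows, in knockout GMP at 5 and 4, in Idh2 mutant MEP at 17 and 0, and in Idh2 mutant GMP at 1 and 9, against 0 and 0 in wild type MEP and 0 and 14 in wild type GMP. It was under 10% at 2 MEP-high windows in knockout GMP and 1 in Idh2 mutant GMP, against 16 in wild type GMP, and at 0 windows in knockout MEP, Idh2 mutant MEP and wild type MEP. No MEP-low window was under 10% in these 6 groups. The 4 MEP-high windows under 10% were 2 adjacent windows in an intron of Fry and 1 each in introns of Fbxo31 and Tpcn1. The 5 MEP-low ones had Slc22a20, Smad6, Gadd45g, Gdf3 and Tnrc6a as their gene or nearest start. At these 9 windows the lowest mean of any other group was 10.04% and the highest 87.9%.

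The Fbxo31 window lies in an intron of an F-box protein of a ubiquitin ligase. It was at 3.85%, 2.67% and 0.91% in the double mutant, against 66.0% and 66.7% in knockout MEP and 93.1% and 82.7% in Idh2 mutant MEP. The 3 double mutant libraries lay below every other library, 63.8 points under knockout MEP (adjusted p = 3.45e-06, quasi-binomial model) and 85.4 points under Idh2 mutant MEP (adjusted p = 2.64e-06). The Smad6 window, near the gene of an inhibitor of bone morphogenetic protein signalling, was at 1.37%, 0.54% and 2.94% in the double mutant, against 21.0% and 37.8% in knockout MEP and 25.8% and 19.4% in Idh2 mutant MEP (adjusted p = 0.000337 and 0.00154). Here too the double mutant lay below every other library. Zbtb16 (PLZF), a transcription factor of stem and progenitor cells, held an intron window at 13.3%, 13.8% and 25.3% in the double mutant, against 23.6% and 48.9% in knockout MEP and 81.2% and 91.3% in Idh2 mutant MEP, which was 68.8 points lower than Idh2 mutant MEP (adjusted p = 0.000108).

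The windows were also placed by gene feature and base content. A window under 10% in both wild type cell types cannot meet the rule. Over all windows 48.7% were under 10% in wild type MEP and 48.9% in wild type GMP. The shares below are thus partly bounded by the choice, and those over all windows are not like for like. Introns held 33 of 79 MEP-high windows (41.8%) and 19 of 42 MEP-low windows (45.2%), where they held 15.7% of all windows. Promoters, taken as 1 kb either side of a start site, held 6 (7.59%) and 5 (11.9%), against 47.8% of all windows. The median was 17 CpGs per kb in MEP-high and 18 in MEP-low windows, against 31 over all windows, and the GC content was 48.5% and 49.0%, against 53.5%. Windows outside promoters had 20 CpGs per kb and a GC content of 50.0%, so the members were close to them. MEP-high windows were found on all 19 autosomes and MEP-low windows on 14. Chromosome 5, picked after the counts were seen, held 11 of 79 MEP-high windows, the adjacent Fry windows among them, and 7.01% of all windows. MEP-low windows were absent from chromosomes 2, 5, 12, 15 and 16.

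The windows were searched on both strands for short motifs of blood cell factors. AGATAA, a form of the motif that GATA factors bind, was in 31 of 42 MEP-low windows (73.8%) and 30 of 79 MEP-high windows (38.0%), against 29.2% of all windows and 34.6% of windows outside promoters. AGATAA or the related TGATAA was in 37 MEP-low windows (88.1%) and 41 MEP-high windows (51.9%), against 44.0% and 52.4%. The printed Tpra1 stretch holds AGATAA from its base 109, and the printed Smad6 stretch holds TGATAA from base 101 and, on the minus strand, from base 45. TGACTCA, the core shared by NF-E2 and AP-1, was in 18 MEP-high windows (22.8%) and 5 MEP-low windows (11.9%), against 12% of all windows and 14.1% outside promoters. TGTGGT, the Runx core, was in 50 MEP-high (63.3%) and 24 MEP-low windows (57.1%), against 43.7% and 50.0%. GAGGAA, bound by PU.1 and other ETS factors, was in 64.6% and 59.5%, against 62.9% of all windows. TTGCAA of the C/EBP factors was in 24.1% and 16.7%, against 17.4%, and CACCC of the Klf factors in 96.2% and 92.9%, against 94.0%. A match of letters is a description of the window and no binding was measured.

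CpGs around the windows were also read. Those within 500 bp of the centre are the CpGs by which the rule chose the windows, so the wild type values there, and their decline outside, are set by the choice and are given only beside those of the mutants. Single CpGs within 500 bp of the centre of MEP-high windows had a mean MEP minus GMP difference of 14.7 points in the knockout and 27.5 points in the Idh2 mutant, against 28.1 points in wild type. Between 500 and 1500 bp the means were 4.73 and 5.71 points, against 9.0 points in wild type (41 CpGs). The medians in that bin were only 2.03 and 0.359 points, against 1.93 points in wild type, so the means rest on a minority of its CpGs. Between 1500 and 3000 bp the means were -0.43 and 1.49 points, against 0.39 points (61 CpGs). At MEP-low windows the means were -3.51 and -30.9 points within 500 bp, against -26.1 points in wild type, and -0.17 and 0.53 points between 1500 and 3000 bp, against -0.54 points. The bin between 500 and 1500 bp held only 15 CpGs at MEP-low windows. A pair of members in Phc2, a polycomb group gene, chosen after its values were seen, lay 5000 bp apart with opposite directions. The MEP-high window of Phc2 was at 93.2% and 94.6% in Idh2 mutant MEP, against 72.6% and 69.6% in GMP, and the MEP-low one at 70.1% and 54.0%, against 74.0% and 91.4%.

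**Figure D5:**
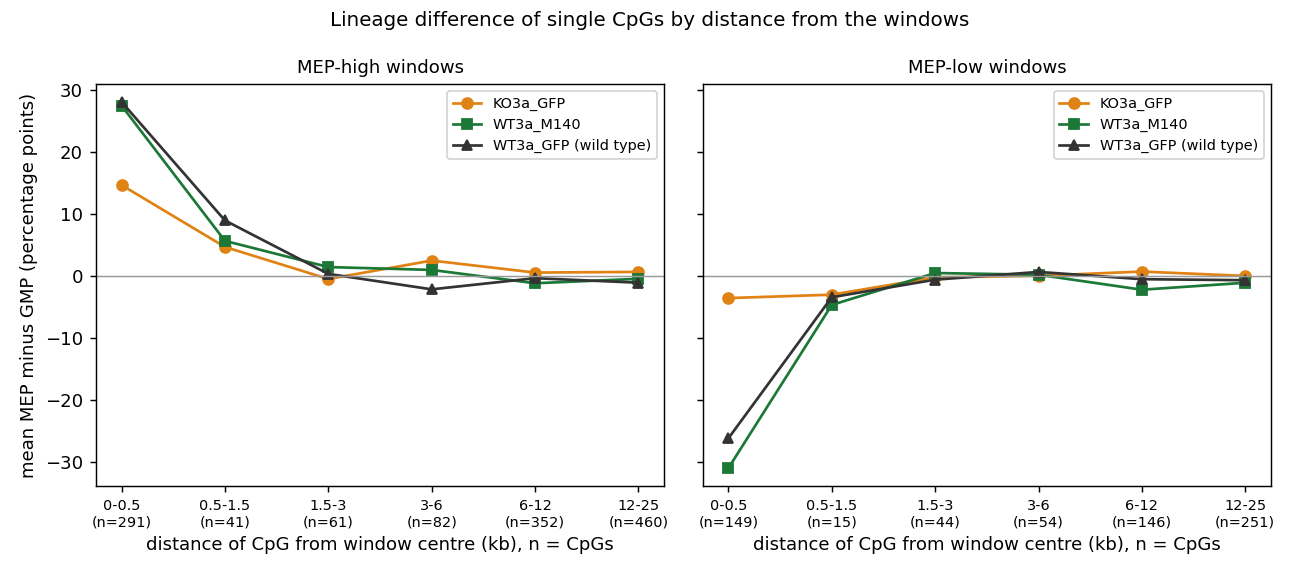
Mean MEP minus GMP difference (percentage points) of single CpGs by distance from the centre of the windows (kb), for the knockout, the Idh2 mutant and wild type, at MEP-high (left) and MEP-low (right) windows. The windows were chosen by the wild type levels within 500 bp, which sets the wild type profile, and the mutant means between 1500 and 3000 bp lie between -0.43 and 1.49 points, and the number of CpGs is given under each bin.

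The windows next to the threshold show how finely the 15-point rule cuts. The narrowest MEP-high gaps inside were 15.1 points near Stoml3 and 15.2 points near Sulf2, and those just outside were 14.99 points in 4933407C03Rik and 14.9 points in Lphn2. The narrowest MEP-low gaps inside were 15.05 points in Prkca and 15.1 points in Ctdsp2, and those just outside were 14.96 points near Dusp23 and 14.8 points in Rassf8. With a gap of 10 points the rule would keep 143 MEP-high and 117 MEP-low windows, and with 25 points 28 and 6.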

How the data were processed

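The authors deposited 1 file of cytosines per library, made with BSMAP 2.74 on mm9, per the submitters' processing notes. The tests used the deposited counts of methylated reads and of all reads at each cytosine, and the deposited methylation fraction was only checked against them. How duplicates, trimming and conversion were handled is not given in the sources here, and duplicates make binomial errors too small. Both strands of a CpG were added. The 241527 autosomal CpGs with 10 reads in all 15 libraries (median depth 30 to 51) gave 29251 windows of 1 kb with at least 3 CpGs. Windows were placed with gencode vM1 on NCBIM37.

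The members, gene lists and tests were chosen with earlier results of these data known. Levels were tested in a quasi-binomial model with 1 mean for each of 5 mutant groups (11 libraries, 6 residual degrees of freedom). Wild type libraries, used by the rule, were left out. Dispersion was squeezed to a common value (prior degrees of freedom 5.68) with a floor of 1, and p-values from F tests were Benjamini-Hochberg adjusted over all windows. The model was tested on simulated data. Named windows were, per direction, the 8 widest wild type gaps, up to 5 called members per comparison and direction without overlap of libraries, list genes, and those next to the threshold. Alternatives were 20 reads, 500 bp windows, gaps of 10 and 25 points, limma 3.58.1, edgeR 4.0.16, all 15 libraries, the title number as a block, and each library left out. Software was R 4.3.3 and Python 3.11.15 with scipy 1.17.1, numpy 2.4.6, pandas 2.3.3 and matplotlib 3.10.9.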

Additional observations from a re-analysis of the deposited data

Results flagged for a closer look

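At 4 windows both Dnmt3a knockout MEP libraries lay on the opposite side of the knockout GMP libraries from the order seen in the Idh2 mutant, and none of the 4 differences between the genotypes passed the quasi-binomial model. The share of all windows with such opposite orders was not counted. Taken singly, knockout MEP lay above GMP without overlap at 18.3% of all windows and below at 8.45%. Idh2 mutant MEP lay above at 6.56% and below at 22.4%, so 4 of 121 windows is not shown to be unusual. At Tpra1 the MEP minus GMP difference was 13.1 points in the knockout and -54.4 points in the Idh2 mutant (adjusted p = 0.248). At Pitpnc1 it was 10.46 and -38.5 points (adjusted p = 0.406), at Fam189b 14.1 and -26.3 points (adjusted p = 0.546), and at Atg9a -7.62 and 8.08 points (adjusted p = 0.636). The Tpra1 libraries read 50.0% and 64.5% in knockout MEP and 38.7% and 49.6% in knockout GMP, and its opposite direction in the knockout rests on 1 of its 3 CpGs (71.5% in MEP and 51.5% in GMP), while the other two were lower in MEP (64.4% and 7.69% in MEP, against 68.5% and 7.99% in GMP).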

How the results depend on the processing

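Of 224 summary values recomputed under other settings, 151 stayed within the limits used (a count or share within 1.5 times, a median within the spread of the libraries). With limma, edgeR or the replicate block, 0 windows were called in the knockout or Idh2 mutant lineage difference, so 0.0% of members were. The knockout also had 0 calls (0.0% of MEP-high members) with 20 reads or 500 bp windows, and 0.0% of members with a gap of 25 points, and 11 calls with all 15 libraries. The Idh2 mutant had 20 calls with 20 reads (27.0% of MEP-high members). Deviations of the MEP and GMP libraries by title number correlated by -0.0397 in the knockout, 0.51 in the Idh2 mutant and 0.361 in wild type. Variation shared by title number was thus seen in the Idh2 mutant and wild type, and the main model has no term for it. What the number stands for was not shown. The block on the title number called 2224 windows against knockout MEP (15.2% of MEP-high and 11.9% of MEP-low members) and 2162 against Idh2 mutant MEP (15.2% and 28.6%).

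For the double mutant, 20 reads gave 1830 calls against knockout MEP, 1958 against Idh2 mutant MEP, 1744 against knockout GMP and 1680 against Idh2 mutant GMP, with medians of -13.5 points against Idh2 mutant MEP (MEP-high), 1.16 against knockout GMP and -5.33 against Idh2 mutant GMP (MEP-low). With 500 bp windows the Idh2 mutant MEP-high lineage median was 28.4 points and the MEP-low median against Idh2 mutant GMP -4.62. limma called 2696 windows against Idh2 mutant MEP (21.5% of MEP-high members), 32.9% of MEP-high and 14.3% of MEP-low members against knockout GMP, and 2232 against Idh2 mutant GMP (35.4%). edgeR called 2388 against knockout MEP (16.5% and 19.05% of MEP-high and MEP-low members), 2244 against Idh2 mutant MEP (16.5% of MEP-high), 2191 against knockout GMP (31.6% and 14.3%) and 1794 against Idh2 mutant GMP (34.2%).

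With a gap of 10 points the MEP-high lineage medians were 7.76 in the knockout (1.40% called) and 17.3 in the Idh2 mutant (11.2% called, and 13.7% of MEP-low), the double mutant medians 9.69 against Idh2 mutant MEP (MEP-low), 10.97 and 3.51 against knockout GMP (MEP-high, MEP-low) and 9.56 against Idh2 mutant GMP (MEP-high). With a gap of 25 points, which left 6 MEP-low windows, the double mutant medians at MEP-low windows turned to -2.09 against knockout MEP and -4.14 against knockout GMP. The lineage medians were then -11.2 in the knockout (MEP-low), 35.7 and -49.0 in the Idh2 mutant (35.7% and 66.7% called) and -22.4 for their difference (MEP-high). Those against the GMP groups were 20.6 (knockout, MEP-high), 32.1 and -17.4 (Idh2 mutant, 50.0% of MEP-low called). At Cdca4 the double mutant minus Idh2 mutant GMP difference turned to -4.11 points at 20 reads (adjusted p = 0.618, quasi-binomial model).

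With 1 mutant library left out, or with members chosen without both wild type libraries of 1 replicate number, lineage calls over all windows were 0 in the knockout, 0 to 8 in the Idh2 mutant and 0 to 1 for their difference. Members called were 0.0% to 0.885% and 0.0% in the knockout (MEP-high, MEP-low), 0.0% to 7.96% and 0.0% to 7.14% in the Idh2 mutant, and 0.0% and 0.0% to 2.38% for their difference. Lineage medians were 1.97 to 16.6 and -7.46 to 0.467 points in the knockout, 2.75 to 26.1 and -33.7 to -5.1 in the Idh2 mutant, and -15 to -1.63 and 5.82 to 33.5 for their difference. For the double mutant, calls over all windows, MEP-high and MEP-low shares and medians were 2351 to 3709, 16.5% to 25.3%, 19.05% to 31.0%, -0.538 to 3.48 and 2.82 to 9.11 points against knockout MEP. They were 2500 to 3811, 17.7% to 34.5%, 29.5% to 54.8%, -8.14 to -2.85 and 4.9 to 23.5 points against Idh2 mutant MEP. Against knockout GMP they were 1510 to 3542, 25.3% to 46.8%, 7.14% to 28.7%, 6.19 to 16.9 and 2.2 to 6.34 points, and against Idh2 mutant GMP 1398 to 3241, 26.6% to 50.6%, 21.4% to 33.3%, 2.98 to 17.9 and -2.78 to -0.364 points.

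Choosing the members without wild type replicate 1 or replicate 2 compares 1 library with 1 and gave 378 and 226 MEP-high and 300 and 457 MEP-low windows. Depth and 2 libraries per group limit what single windows can show. The cause of these changes was not tested, except that 20 reads leave fewer CpGs.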
